A study of Danio rerio with 6 samples.

Results

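Adult zebrafish pituitary cells of 7 months were compared with those of 5 months after the gonadotropes had been left out. A gonadotrope well was one in which cga, lhb and fshb, the genes of the gonadotropin subunits, together held at least 5% of the unique molecular identifiers (UMIs, which count captured mRNA molecules). Of 2304 wells in the series, 1390 held at least 400 UMIs, and 740 of these were on the 4 adult plates. Leaving out 43 gonadotrope wells, 40 of them at 5 months and 3 at 7 months, kept 697 wells: the 5-month plates kept 231 and 160, and the 7-month plates 202 and 104. The comparison asked which age differences remained without gonadotropes, and which cells held them.

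The cells were single cells, stained with propidium iodide and sorted, from AB strain fish carrying the transgene Tg(pomca:EGFP), which puts a green fluorescent protein under the promoter of pomca, the gene of a pituitary prohormone. The labels give the tissue as Neurohypophysis, the posterior lobe, and the source as cells enriched for it, from dissected pituitaries, and genes of anterior lobe hormones were found too. All adult fish were males that had received 10 µl of 4.6 mM β-Ala-Lys-Nε-AMCA by injection, which is a dipeptide with a fluorescent group, and the tissue was taken 3 hours later. Each age was a single pool of 5 pituitaries spread over 2 plates, so the plates of an age share their fish and p-values measure the spread between plates. Age therefore cannot be told apart from any other difference between the 2 pools. Library preparation was MARS-seq, in which each sorted cell is barcoded in its own well of a 384-well plate. The remaining age of the series, 37 days post fertilization, was used only in a fit of all 6 plates.

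The pituitary has an anterior lobe of hormone cells, each type named for its product: gonadotropes, thyrotropes (tshba), somatotropes (gh1), lactotropes (prl) and, in fish, somatolactin cells (smtla, smtlb). The posterior lobe holds axon endings of hypothalamic neurons, blood vessels and pituicytes, the glia that surround those endings. Macrophages and microglia, the resident phagocytes, and fibroblasts, which make collagen matrix, are found among both. When gonadotropes are a large share of one age's cells, their hormone and secretory genes enter any sum over a plate, and leaving them out puts the remaining cells on view.

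The 4 plates were of unequal depth. The kept wells held 341659 and 210928 UMIs at 5 months and 203710 and 80475 at 7 months, so that a count of 0 on a plate allowed a level of up to 8.78 to 37.3 CPM (UMIs per 1000000 UMIs). Median UMIs per well were 1063 and 1009 at 5 months and 931.5 and 675.5 at 7 months. Genes named mt-, of the mitochondrial genome, took 4.85% and 5.61% of the kept UMIs at 5 months and 3.21% and 3.51% at 7 months. A group of 24 rows named AC024175, for which the tables give no source, took 30.3% and 36.6% at 5 months and 25.3% and 28.1% at 7 months. The adult plates carry the same sequencing batch label, and no well name was shared between plates, although the 384 cell barcodes were reused from plate to plate.

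Gonadotropin transcripts were still present at a low level in the kept wells, mostly at 5 months. They were 0.283% and 0.265% of UMIs on the kept 5-month wells and 0.0540% and 0.0249% on the kept 7-month wells, against 3.84%, 3.12%, 0.161% and 0.543% when all wells were summed. Wells with at least 1 gonadotropin UMI were 88.3% and 64.4% of the kept 5-month wells, against 12.9% and 13.5% of the 7-month wells. The gene cga encodes the alpha subunit that gonadotropins share with thyrotropin, so the limit could also leave out thyrotropes rich in it. It was found in every cluster described below that had wells at 5 months. On the first 5-month plate it stood at 1371 to 2859 CPM outside cluster 5 and at 5042 CPM in it, and on the second at 152 to 1188 CPM and at 15210 CPM. These genes chose the wells, so no test was made of them. The limit at 5% fell in a sparse range: 3 kept wells lay between 4% and 5%, and 5 left-out wells between 5% and 6%, all at 5 months. At 7 months the highest kept well was at 3.00%, and the lowest left-out well at 26.8%.

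The kept wells fell into 9 clusters, found without cga, lhb, fshb and the 2 genes called between ages, and 3 clusters could be named from marker lists. Cluster 1 was pituicyte-like, with 12 of 18 pituicyte markers enriched, among them cyp26b1, which breaks down retinoic acid, and fabp7a, a glial fatty acid binding protein. It held 16.9% and 18.8% of kept wells at 5 months and 24.3% and 37.5% at 7 months. Cluster 4 was macrophage or microglia-like, with all 20 markers of that list enriched, and was led by cd74a, the invariant chain of class II antigen presentation. It held 11.7% and 6.88% of wells at 5 months and 3.96% and 3.85% at 7 months. Cluster 2 was fibroblast-like, with all 14 markers enriched, and held 16.9% of wells on both 5-month plates and 21.8% and 11.5% at 7 months.

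The other 6 clusters kept their numbers. Among the leading genes of cluster 3 were the kinase gene wnk1b and the epithelial adhesion gene epcam. It held 9.52% and 5.00% of wells at 5 months and 16.8% and 22.1% at 7 months. Cluster 5 was led by gh1, tshba and elavl3, a neuronal RNA binding protein gene, and so mixed hormone and neuronal genes. It held 10.8% and 6.25% of wells at 5 months and 3.96% and 5.77% at 7 months. With the wells clustered more finely, at a resolution of 1.5, a neuron-like cluster held on average 3.63% of wells at 5 months and 3.41% at 7 months, and its plates overlapped. A separate cluster led by gh1 and tshba held 5.22% and 1.46%. Its leading genes also included the gonadotropin gene fshb and the secretory genes scg3 and pcsk1nl. Cluster 6, led by thbs2b, clu and hapln1a, which encode secreted matrix and extracellular proteins, held 0% and 1.88% of wells at 5 months and 11.4% and 3.85% at 7 months. It had 10 of 14 fibroblast markers enriched, none among its leading genes, and the fibroblast list took 1.19% to 2.02% of its UMIs. Wells with fibroblast markers were thus not confined to cluster 2. Cluster 0 had no leading cell type gene: AC024175 rows were 72.2% and mt- genes 10.97% of its UMIs, and its median well held 570.5 UMIs. It held 29.0% and 39.4% of wells at 5 months and 13.4% and 14.4% at 7 months. Clusters 7 and 8, each led by krt94 with lyve1a or mgp, held 15 wells each. The endothelial marker list took 0.363% to 0.534% of UMIs in cluster 7, against at most 0.0631% in any other cluster. The fibroblast list took 1.16% to 1.95% in cluster 8. All 15 wells of cluster 8 fell in the fibroblast-like cluster when genes of unadjusted p under 0.05 were left out of the clustering.

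**Figure D1:**
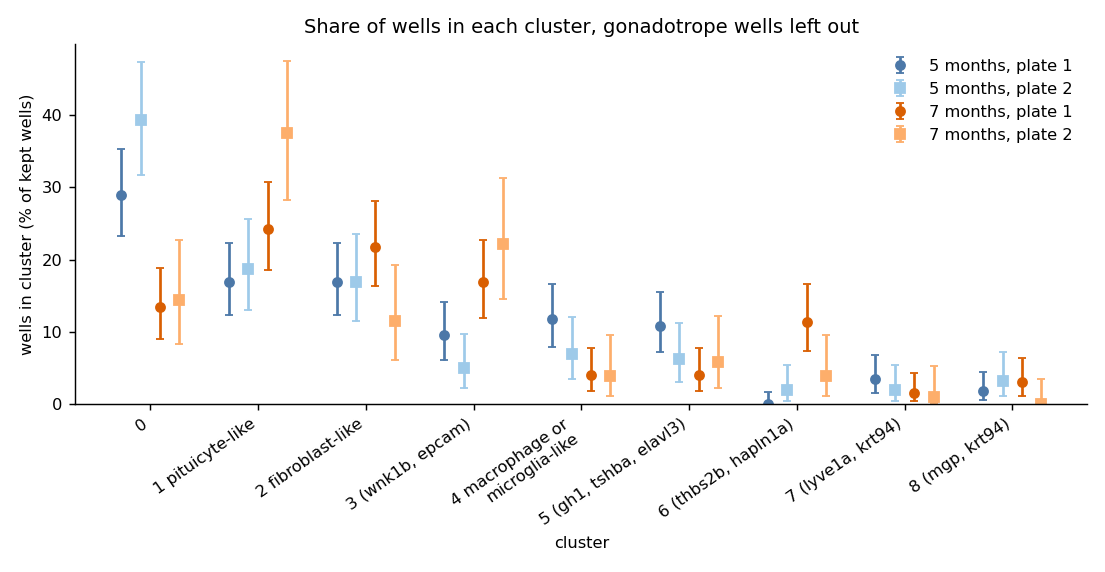
Share of kept wells in each of the 9 clusters (y axis, percent of the wells of a plate; x axis, cluster), with 1 point per plate and bars for 95% Clopper-Pearson intervals, which cover counting error only. Both 7-month plates lie above both 5-month plates for clusters 1, 3 and 6 and below them for clusters 0, 4, 5 and 7. Shares are of all kept wells, cluster 0 included, and for cluster 1 the plates overlap among wells outside cluster 0.

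Averaged over the plates of an age, the pituicyte-like share was 17.8% ± 1.32 (SD, n = 2 plates) at 5 months and 30.9% ± 9.36 at 7 months, and the macrophage or microglia-like share 9.28% ± 3.40 and 3.90% ± 0.0808. Cluster 3 went from 7.26% ± 3.20 to 19.5% ± 3.74, and cluster 0 from 34.2% ± 7.33 to 13.9% ± 0.747. With 2 plates against 2, an exact two-sided permutation test cannot give a p below 0.333, so no test of shares was made. In cluster 1 the interval of the first 7-month plate overlapped those of both 5-month plates. These shares are of all kept wells, cluster 0 included, which held 67 and 63 wells at 5 months and 27 and 15 at 7 months. Among wells outside cluster 0, the pituicyte-like shares of the 2 ages overlapped, while those of clusters 3 and 4 did not. Macrophage or microglia-like wells were rich in RNA, with a median of 3454 and 3819 UMIs per well at 5 months and 1488 and 1566.5 at 7 months. Their part of all kept UMIs was therefore larger than their part of wells: 23.9% ± 7.29 at 5 months and 7.89% ± 1.40 at 7 months. In a sum over a plate, fewer cells of a type and less RNA per cell cannot be told apart.

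Fewer genes were called between ages once the gonadotropes were left out. This is a count at a threshold: the genes that could still be tested kept their direction, as given below. With all wells of at least 400 UMIs, 98 of 2218 genes (4.42%) passed edgeR's quasi-likelihood test on plate sums, with p-values adjusted after Benjamini and Hochberg and a threshold of 0.05. Of these, 49 (2.21%) rose and 49 (2.21%) fell from 5 to 7 months. Without gonadotrope wells it called 2 of 1976 genes (0.101%), f13a1a.1 higher (0.0506%) and smtlb lower (0.0506%). An unadjusted p under 0.05 was found for 294 genes (14.9%), 180 of them higher (9.11%) and 114 lower (5.77%). The 2 comparisons share their plates and most of their wells. The 40 gonadotrope wells at 5 months had held 21.14% of the UMIs of the 431 wells there.

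Of the 49 genes called lower with all wells, 20 no longer had enough counts to be tested. The other 29 had a median log2 difference of -2.83 with all wells and -2.71 without gonadotropes. All 29 were still lower, 24 of them at an unadjusted p under 0.05, and 1 was called. Some of the 49 were genes of secretion. The left-out wells had held 84.96% of the 5-month UMIs of scg3 (secretogranin III, a granule protein), 85.8% of scg5 (the chaperone of a prohormone convertase), 84.2% of cplx1 (complexin, of vesicle release) and 73.8% of chga (chromogranin A). The log2 difference of scg3 was -3.13 ± 0.28 (SE) with all wells (adjusted p = 8.39e-05) and -1.13 ± 0.35 without gonadotropes (adjusted p = 0.163). That of scg5 was -2.86 ± 0.41 with all wells (adjusted p = 0.00333) and -0.74 ± 0.51 without (adjusted p = 0.557). The apolipoprotein gene apoc1 had 3.59% of its 5-month UMIs in gonadotrope wells, and its log2 difference was -2.87 with all wells (adjusted p = 0.0336) and -3.12 without (adjusted p = 0.0981). Of the 49 genes called higher with all wells, 47 were tested without gonadotropes, all 47 had an unadjusted p under 0.05, and 1 was called. The median log2 difference of these 47 was 1.75 with all wells and 1.61 without gonadotropes.

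The gene f13a1a.1, one of the zebrafish genes of coagulation factor XIII A, a transglutaminase that crosslinks fibrin and that mammalian macrophages also carry, was called higher at 7 months (adjusted p = 0.00114). It had 0 UMIs on both 5-month plates and 288 and 281 UMIs on the 7-month plates. Against a floor of 3 counts over the 5-month plates, it was at least 329-fold higher. A single macrophage or microglia-like well on each 7-month plate held 94.4% and 97.9% of these UMIs, where the gene made up 13.05% and 12.5% of the well's own 2084 and 2199 UMIs. A UMI was seen in 16 and 7 kept wells in all. None of the 38 macrophage or microglia-like wells at 5 months had a UMI, and 2 of the 12 at 7 months held nearly all of them. With that cluster left out the gene was not called (adjusted p = 0.168), nor with a minimum of 1000 UMIs per well (adjusted p = 0.0728). With the highest well of each plate left out it was still called (adjusted p = 0.0225). The few UMIs then left lay mostly outside the macrophage or microglia-like cluster. On the first 7-month plate they were in clusters 1, 2, 3 and 6, at 84.5, 67.4, 68.1 and 173 CPM. On the second they were in clusters 1 and 3, at 133 and 107 CPM. This call therefore says little about macrophage or microglia-like wells.

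The gene smtlb, of the fish hormone somatolactin beta, a relative of growth hormone and prolactin, was called lower at 7 months (adjusted p = 0.0145). It had 81 and 45 UMIs on the 5-month plates and 0 on both 7-month plates, which made it at least 24.2-fold lower against a floor of 3 counts over the 7-month plates. A single well on each 5-month plate held 71.6% and 88.9% of its UMIs. The first was in cluster 3 and the second in the pituicyte-like cluster, and neither had a UMI of gh1, prl or tshba. Among wells under 400 UMIs, which were not kept, 1 well at 7 months held 4 UMIs of smtlb. With a minimum of 600 UMIs per well smtlb was not called (adjusted p = 0.0527).

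The counts of calls depended on which plates, wells and scaling were used. Leaving out 1 plate gave 33 or 52 calls (a 5-month plate) and 14 or 99 calls (a 7-month plate), with the lone plate assumed to vary like those of the other age. DESeq2 called 17 genes (0.86%), 7 of them higher (0.354%) and 10 lower (0.506%). With library sizes alone, 11 of 19 calls were higher, against 1 of 2 with TMM scaling, and all genes tested then had a median log2 difference of 0.18.

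The genes next in order all missed the threshold, at adjusted p of 0.0622 or more. Among higher genes these were cebpd, ascl1a, fibinb and cxcl18b. For cebpd, a transcription factor induced in acute responses, the plates stood at 474 and 448 CPM at 5 months and at 1298 and 1837 CPM at 7 months, on TMM-scaled libraries. The 7-month plates were both well above the 5-month plates, with a log2 difference of 1.75 ± 0.29 (adjusted p = 0.0622), and UMIs were in 62, 39, 97 and 52 wells. The neural and endocrine basic helix-loop-helix factor ascl1a had 3 and 4 UMIs at 5 months and 21 and 11 at 7 months (log2 difference 2.95 ± 0.59, adjusted p = 0.0864). With all wells its difference was 0.35 (adjusted p = 0.721). The gene fibinb, a relative of a fin bud initiation factor of zebrafish, had 4 and 2 UMIs at 5 months and 38 and 4 at 7 months (3.39 ± 0.71, adjusted p = 0.0951). The chemokine gene cxcl18b stood at 310 and 435 CPM at 5 months and at 1054 and 959 CPM at 7 months (1.45 ± 0.30, adjusted p = 0.0951). All of these genes had both 7-month plates above both 5-month plates, as did 513 of the 1976 genes tested.

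Among the lower genes, zgc:174904 had 38 and 19 UMIs at 5 months and 1 and 0 at 7 months. BX649485.1 had 60 and 29 at 5 months and 1 and 2 at 7 months, and BX649485.2 had 95 and 79 against 12 and 1. None of these has an annotated role in the tables, and all had an adjusted p of 0.0622. At 5 months, 93.0%, 94.4% and 98.3% of their UMIs were in the macrophage or microglia-like cluster. The gene pcsk1nl, of proSAAS, an inhibitor of a prohormone convertase, had 66 and 36 UMIs at 5 months and 6 and 1 at 7 months (log2 difference -3.08 ± 0.54, adjusted p = 0.062), and 79.4% of its 5-month UMIs in kept wells were in cluster 5. The left-out gonadotrope wells had held 72.65% of its 5-month UMIs over all wells. Cluster 5 also had the highest level of cga on each plate. The part of remaining gonadotrope RNA in this difference was not tested. The invariant chain gene cd74a stood at 3853 and 5857 CPM at 5 months and at 1700 and 1028 CPM at 7 months (-1.81 ± 0.32, adjusted p = 0.062). All of these genes had both 7-month plates below both 5-month plates, as did 21.6% of all genes tested.

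**Figure D2:**
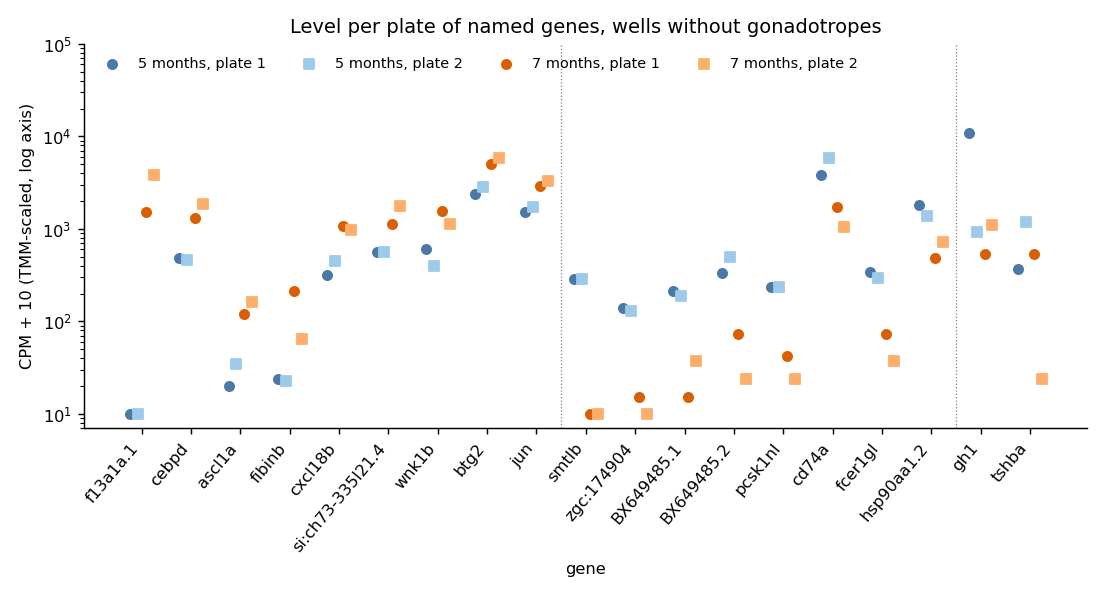
Level of 19 genes on each plate (y axis, TMM-scaled CPM plus 10, log axis; x axis, gene) in wells without gonadotropes, with 1 point per plate. The left block holds genes higher and the middle block genes lower on both 7-month plates, while gh1 and tshba on the right overlap between ages.

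Most of these genes were counted in several wells, and leaving out each gene's highest well on each plate changed the count of calls. This alternative called 41 of 1535 genes (2.67%), 19 higher (1.24%) and 22 lower (1.43%). It takes out a larger part of a gene's UMIs where few wells hold the gene. Macrophage or microglia-like wells were 27 and 11 at 5 months and 8 and 4 at 7 months, so genes of that cluster are pushed lower at 7 months. The sums are also trimmed gene by gene, so their p-values may understate the spread between plates. Among the higher genes were cebpd (1.90 ± 0.29, adjusted p = 0.0167), wnk1b (1.56 ± 0.31, adjusted p = 0.0314), id1, an inhibitor of basic helix-loop-helix factors (1.60 ± 0.32, adjusted p = 0.0314), and her9, a hairy-type repressor (1.68 ± 0.39, adjusted p = 0.0453). The basement membrane collagen gene col4a1 (1.87 ± 0.39, adjusted p = 0.0343) and the immediate early genes btg2, jun, junbb, ier2a and zfp36l1b were also called. Among the lower genes were cd74a (-1.98 ± 0.30, adjusted p = 0.0167), the leukocyte phosphatase gene ptprc (-4.79 ± 0.89, adjusted p = 0.0268), the Fc receptor chain gene fcer1gl (-2.92 ± 0.55, adjusted p = 0.0268) and hsp90aa1.2, a cytosolic chaperone gene (-1.43 ± 0.30, adjusted p = 0.0343). Of these 41 genes, 31 were also called with all wells, and 16 of the 17 DESeq2 calls, 14 of the 19 with library sizes alone and 9 of the 11 with RLE size factors were among them. With the highest wells counted, the log2 difference of ptprc was -2.97, that of fcer1gl -2.60 and that of cd74a -1.81. The alternatives share their plates and most of their wells. Of the 2 genes called with all wells counted, f13a1a.1 was called here too, on the few UMIs described above, and smtlb had too few counts left.

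The genes differed in the clusters that held their UMIs. At 5 months 96.6% of the 2072 UMIs of cd74a were in macrophage or microglia-like wells, and at 7 months 92.4% of 396. Within those wells cd74a did not separate the ages: it stood at 10970 and 23120 CPM at 5 months and at 20830 and 10210 CPM at 7 months. The UMIs of fcer1gl lay in the same cluster, at 918 and 1165 CPM there at 5 months and 782 and 280 CPM at 7 months. In contrast, cebpd was spread over the pituicyte-like and fibroblast-like clusters and cluster 3, with 30.8%, 25.1% and 36.0% of its UMIs at 5 months. Its level was higher on both 7-month plates within pituicyte-like wells (572 and 787 CPM against 1564 and 2717) and within fibroblast-like wells (559 and 833 against 1393 and 2288). In cluster 3 it was not, at 1883 and 666 CPM at 5 months and 1566 and 1494 at 7 months.

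Other higher genes followed a cluster. Of the UMIs of wnk1b, 76.9% at 5 months and 88.4% at 7 months were in cluster 3, where its level was 3902 and 3803 CPM at 5 months and 5945 and 3841 at 7 months. For cxcl18b, 46.6% of UMIs were in fibroblast-like wells at 5 months, and at 7 months 36.1% were in cluster 6 and 27.9% in fibroblast-like wells. Cluster 6 also held 61.9% of the 42 UMIs of fibinb at 7 months. Cluster 3 held 78.1% of the 32 UMIs of ascl1a at 7 months. The gene si:ch211-251b21.1, without an annotated role, was at 2160 and 2222 CPM in pituicyte-like wells at 5 months and at 2177 and 2617 at 7 months, but in fibroblast-like wells it was at 248 and 513 CPM at 5 months and at 4291 and 1907 at 7 months.

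**Figure D3:**
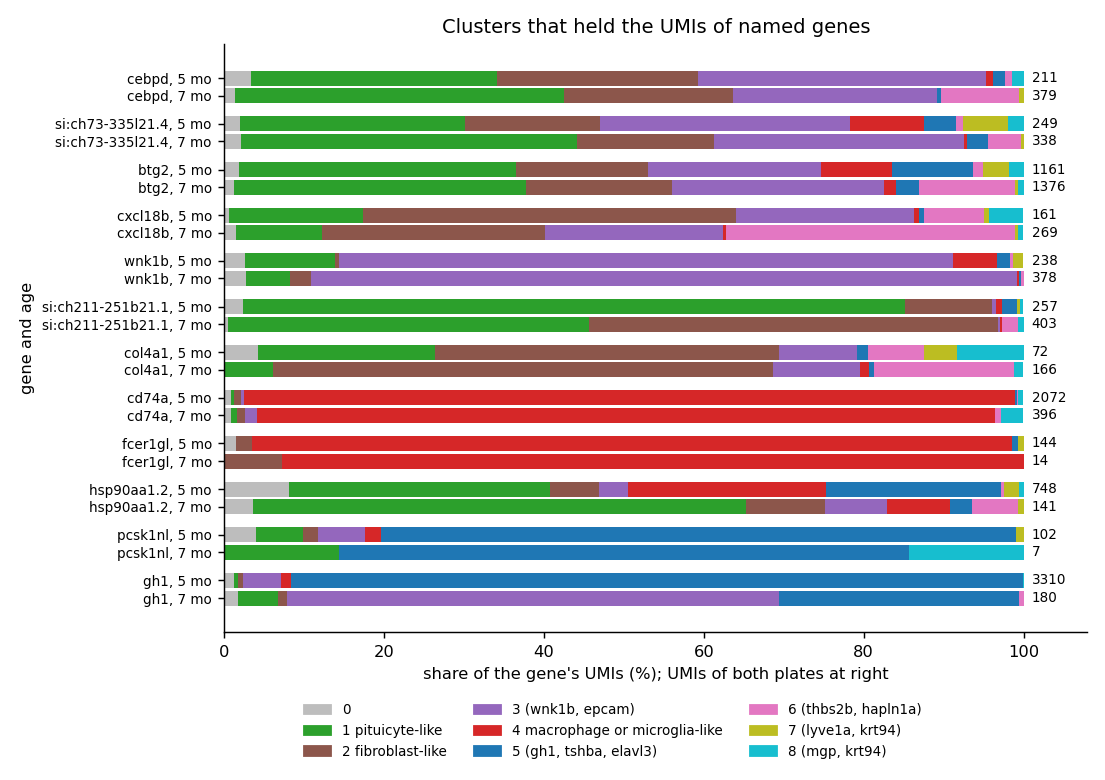
Share of each gene's UMIs found in each cluster (x axis, percent of the gene's UMIs at that age; bars in pairs by gene and age), with the UMIs of both plates summed and printed at the right. The lower genes cd74a and fcer1gl lie almost wholly in cluster 4, while cebpd, btg2 and si:ch73-335l21.4 are spread over clusters 1, 2 and 3.

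To describe how far the shift in cluster shares went with these differences, levels were recomputed with each cluster given the same weight at both ages, the mean of its shares of UMIs at 5 and 7 months. The values are a description with no test, on libraries without mt- and AC024175 rows and with 10 CPM added before the log. For the 114 genes lower at an unadjusted p under 0.05, the median log2 difference was -1.42 as observed and -0.77 with cluster shares held equal. For the 22 lower genes of the fit without the highest wells it was -2.01 and -0.49. That fit pushes genes of the macrophage or microglia-like cluster lower, so its genes are not typical of all lower genes. For cd74a the difference went from -1.84 to 0.28, and for fcer1gl from -2.60 to -0.64. Other genes of the macrophage or microglia-like cluster kept more of their difference: zgc:174904 went from -3.69 to -2.39 and BX649485.1 from -3.06 to -1.91. For hsp90aa1.2 it stayed, at -1.42 and -1.51. For the 180 genes higher at an unadjusted p under 0.05, the median was 1.28 as observed and 0.84 with shares held equal. For the 19 higher genes of the fit without the highest wells it was 1.40 and 0.67. The difference of cebpd went from 1.74 to 0.89, that of wnk1b from 1.42 to 0.42 and that of cxcl18b from 1.40 to 0.31, while txnipa, a gene of glucose and redox responses, went from 1.53 to 1.202. The genes cd74a, wnk1b and cxcl18b were leading genes of clusters 4, 3 and 6 and were not left out of the clustering. Part of their shrinkage may thus be built in. The 5-month level of cluster 6 came from 3 wells, all on the second plate.

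**Figure D4:**
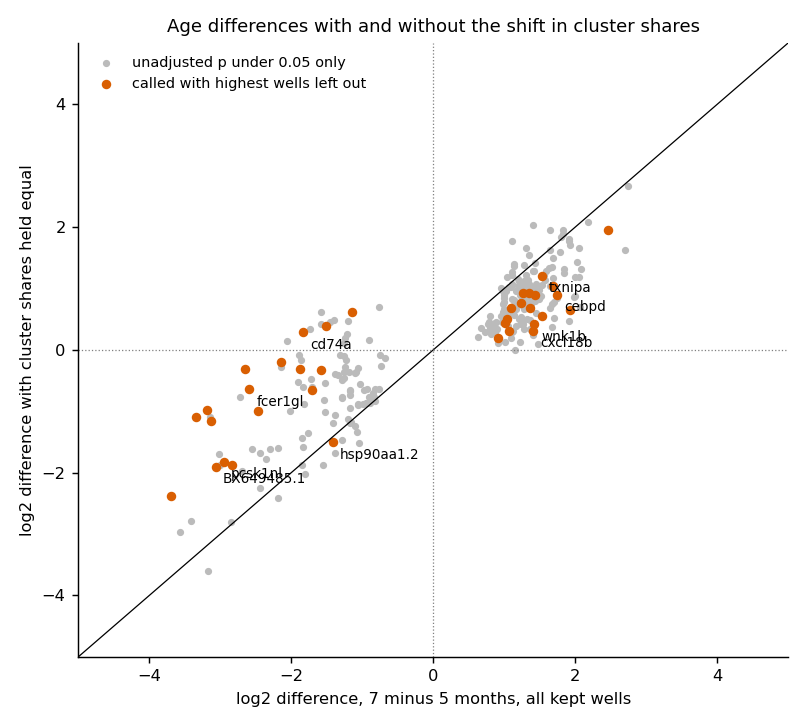
Log2 difference between 7 and 5 months as observed (x axis) and with cluster shares held equal at both ages (y axis) for the genes at an unadjusted p under 0.05, with genes called when the highest wells were left out in orange and the line of equality drawn. On the y axis cd74a lies near 0, BX649485.1 lies between 0 and the line, and hsp90aa1.2 and txnipa lie near the line; f13a1a.1 and smtlb lie outside the axes.

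Within pituicyte-like wells (39, 30, 49 and 39 wells per plate) 3 of 455 genes (0.659%) were called, all higher at 7 months and none lower (0.0%). An unadjusted p under 0.05 was found for 53 genes (11.6%), 42 higher (9.23%) and 11 lower (2.42%). For cebpd the 4 plates held 31, 34, 74 and 82 UMIs in these wells, and it rose by 1.70 ± 0.32 on the log2 scale (adjusted p = 0.00842), with UMIs in 17 of 39 and 16 of 30 wells at 5 months and 27 of 49 and 26 of 39 at 7 months. The gene si:ch73-335l21.4, without an annotated role, stood at 628 and 833 CPM at 5 months and at 1712 and 2021 at 7 months and rose by 1.42 ± 0.29 (adjusted p = 0.0105). CT583728.7, also without a role in the tables, stood at 13390 and 13700 CPM at 5 months and at 20330 and 32900 at 7 months and rose by 1.04 ± 0.21 (adjusted p = 0.0105). CT583728.7 was an abundant transcript in every cluster at 5 months, and its level was higher on both 7-month plates than on both 5-month plates in clusters 0, 1, 2, 3, 4 and 5. In each of these clusters it was highest on the second 7-month plate, the plate of fewest UMIs. On every plate it was highest in cluster 0, the cluster rich in AC024175 rows, at 34730 and 32820 CPM at 5 months and 52760 and 88900 at 7 months. Its rise was thus not particular to pituicyte-like wells. Genes of the macrophage or microglia list were at most 0.0702% of UMIs in pituicyte-like wells on any plate. None of the 3 genes was called when the wells were clustered at a resolution of 0.6 or when either 5-month plate was left out.

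Genes lower in pituicyte-like wells all missed the threshold. The nearest was hsp90aa1.2, at 2548 and 2476 CPM at 5 months and 1014 and 1292 at 7 months (log2 difference -1.08 ± 0.27, adjusted p = 0.0555), followed by the monocarboxylate transporter gene slc16a9a (-0.66 ± 0.25, adjusted p = 0.339), the ribosomal protein gene rps7 (-0.77 ± 0.29, adjusted p = 0.352), the chaperone gene hspa8 (-0.68 ± 0.27, adjusted p = 0.367) and CR318588.4 (-0.64 ± 0.26, adjusted p = 0.367). Next among the higher genes were sepp1a, of the selenium carrier selenoprotein P (1.01 ± 0.28, adjusted p = 0.126), and the AP-1 gene jun (0.89 ± 0.25, adjusted p = 0.147).

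In wells that were neither gonadotrope nor pituicyte-like, edgeR called 0 of 1361 genes (0.0%), with 225 at an unadjusted p under 0.05 (16.5%), 128 higher (9.4%) and 97 lower (7.13%), and DESeq2 called 7. Among the genes of smallest p were f13a1a.1, pcsk1nl (log2 difference -3.04 ± 0.48), f10, of coagulation factor X (3.39 ± 0.54), cxcl18b (1.74 ± 0.28), cebpd (1.66 ± 0.27) and hsp90aa1.2 (-2.10 ± 0.35), each at an adjusted p of 0.11. The count went to 51 with library sizes alone and to 47 without the second 5-month plate.

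Whether the age difference itself differed between pituicyte-like and other wells was tested as an interaction with the plate as a block. EdgeR and DESeq2 each called 0 of 639 genes (0.0%), and 47 had an unadjusted p under 0.05 in edgeR (7.36%), 18 positive (2.82%) and 29 negative (4.54%), against 10 in DESeq2. For cebpd the difference between the 2 age differences was -0.02 ± 0.39 on the log2 scale (adjusted p = 0.998), and for si:ch73-335l21.4 it was 0.12 ± 0.40 (adjusted p = 0.978). Those of smallest p were oaz2a, an inhibitor of polyamine synthesis (2.53 ± 0.56), and si:ch211-251b21.1 (-2.67 ± 0.62). Others were ctgfa and cyr61, matricellular genes (-2.59 ± 0.62 and -2.53 ± 0.73), the chemokine cxcl14 (-2.32 ± 0.59) and cyp26b1 (-0.91 ± 0.25). All of these had an adjusted p of 0.642.

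Of the gene lists, the immediate early genes, which are transcribed within minutes of a stimulus and also during tissue dissociation, had more members higher than lower at 7 months. The list holds cebpd. Of 52 members 41 were tested, none was called, 15 had an unadjusted p under 0.05 in the higher direction (against 9.11% of all genes) and 1 in the lower (against 5.77%). The median log2 difference was 0.52, against -0.01 over all genes tested. The AP-1 gene fosab stood at 7395 and 6790 CPM at 5 months and at 12310 and 13750 at 7 months (0.88 ± 0.24, adjusted p = 0.138), and the antiproliferative gene btg2 at 2397 and 2848 against 5016 and 5880 (1.05 ± 0.24, adjusted p = 0.0981). The inhibitor of NF-kappaB nfkbiaa was the member lower at an unadjusted p under 0.05 (-1.20, adjusted p = 0.186).

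The summed immediate early list took 2.70% and 2.54% of all kept UMIs at 5 months and 4.60% and 5.14% at 7 months. In pituicyte-like wells it took 4.74% and 4.49% at 5 months and 5.79% and 7.24% at 7 months, and in fibroblast-like wells 3.16% and 3.51% against 4.80% and 5.05%. In cluster 3 the ages did not separate, at 5.50% and 5.03% against 5.31% and 5.39%, nor did macrophage or microglia-like wells show a higher share at 7 months (1.97% and 1.91% against 1.81% and 1.34%). Cluster 0, whose share of wells was lower at 7 months, stood at 0.220% to 0.865% on the 4 plates. With cluster shares held equal at both ages, as described above, the median log2 difference of the tested members was 0.25, against 0.02 over all genes tested. That value is on libraries without mt- and AC024175 rows, unlike the median of the fit. The part of the cluster shares in the plate totals was not tested for this list.

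**Figure D5:**
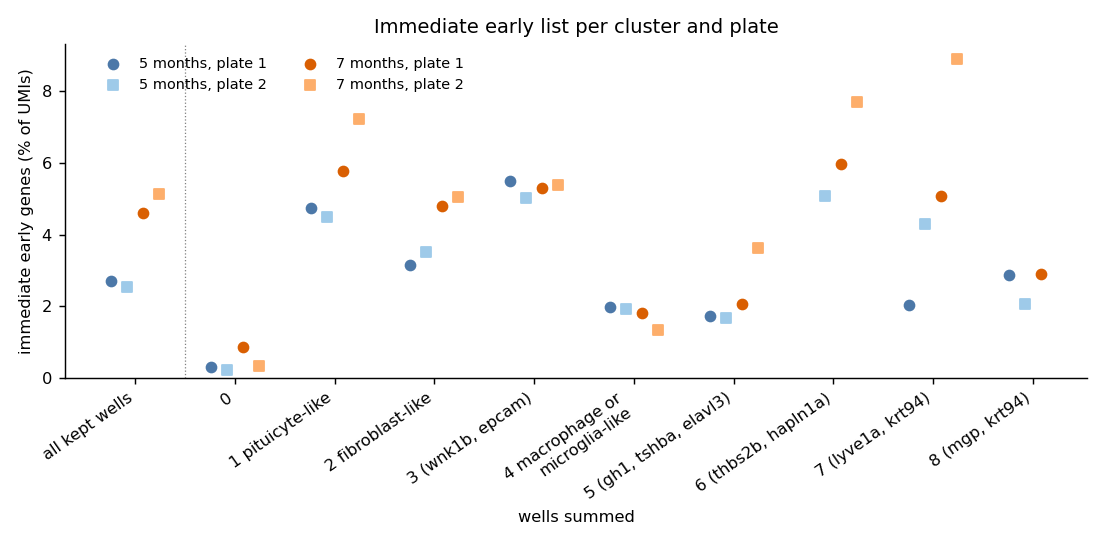
UMIs of the immediate early list as a percent of all UMIs (y axis), summed over all kept wells and over the wells of each cluster (x axis), with 1 point per plate; cluster 6 had no well on the first 5-month plate and cluster 8 none on the second 7-month plate. The 7-month plates lie above the 5-month plates in clusters 0, 1, 2, 5, 6, 7 and 8, and not in clusters 3 and 4.

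The macrophage or microglia list had members lower at 7 months in the plate sums. All 20 members had UMIs, 16 were tested, none was called, and 11 had an unadjusted p under 0.05 in the lower direction (against 5.77% of all genes). The median log2 difference was -1.87. The complement gene c1qc stood at 399 and 249 CPM at 5 months and at 42.4 and 165 CPM at 7 months (adjusted p = 0.175), and the galectin-binding gene lgals3bpb at 614 and 311 against 90.04 and 151 (adjusted p = 0.0990). The summed list took 0.852% and 0.820% of UMIs at 5 months and 0.313% and 0.225% at 7 months. Within macrophage or microglia-like wells it took 2.79% and 4.14% at 5 months and 4.11% and 2.41% at 7 months, so the ages did not separate there. In the antigen presentation list, 8 of 18 members were tested, and cd74a and cd74b were the 2 at an unadjusted p under 0.05, both lower (against 5.77% of all genes).

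Of 13 mitochondrial genome genes 12 were tested, and 10 had an unadjusted p under 0.05, all lower (against 5.77% of all genes), with adjusted p of 0.132 or more and a median log2 difference of -0.88. They took 11.4% and 11.8% of UMIs in cluster 0 at 5 months and 8.10% and 9.47% at 7 months. In pituicyte-like wells they took 3.54% and 3.71% against 2.87% and 2.76%, and in fibroblast-like wells 3.68% and 3.75% against 2.36% and 2.15%. Nuclear genes of the respiratory chain had a median log2 difference of -0.18 over 60 tested members, with 1 at an unadjusted p under 0.05, higher (against 9.11% of all genes). Cytosolic ribosomal protein genes had a median of -0.22 over 79 tested, with none at an unadjusted p under 0.05.

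Of the cytosolic heat shock list, 13 of 21 members were tested and 3 had an unadjusted p under 0.05, 2 lower (against 5.77% of all genes) and 1 higher (against 9.11%). The lower 2 were hsp90aa1.2, at 1807 and 1356 CPM at 5 months and 471 and 713 at 7 months (-1.45 ± 0.31, adjusted p = 0.0951), and hspa8, at 2520 and 1990 against 1208 and 1097 (-0.97 ± 0.26, adjusted p = 0.132). The co-chaperone gene bag3 was higher (1.73, adjusted p = 0.185). The largest shares of hsp90aa1.2 UMIs at 5 months were in pituicyte-like wells (32.8%), macrophage or microglia-like wells (24.7%) and cluster 5 (21.9%).

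The hairy and Notch list, of the pathway that keeps progenitors undifferentiated, had 9 of 24 members tested, all 9 with a positive difference (against 979 of all 1976 genes) and a median of 1.24. At an unadjusted p under 0.05 were 5 (against 9.11% of all genes, higher): the receptor notch3, the ligands jag1b and dla, and the repressors her6 and her9. Adjusted p were 0.0981 or more. With cluster shares held equal at both ages, the median of the tested members was 0.53, against 0.02 over all genes tested. These 2 medians are on libraries without mt- and AC024175 rows. For her9 the plates stood at 133 and 143 CPM at 5 months and 466 and 370 at 7 months, and 59.7% and 87.0% of its UMIs at the 2 ages were in cluster 3. There its level was 791 and 761 CPM at 5 months and 1747 and 1227 at 7 months. With cluster 3 left out, edgeR called 26 genes in place of 2.

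Matrix genes, with 25 of 42 members tested, had a median of 0.84, and 7 had an unadjusted p under 0.05, all higher (against 9.11% of all genes). The first 7-month plate set much of this. The summed list took 0.522% and 0.561% of UMIs at 5 months and 1.80% and 0.511% at 7 months, and in fibroblast-like wells 2.75% and 2.28% against 5.75% and 2.40%. In those wells col4a1 was at 393 and 385 CPM at 5 months and at 2202 and 763 at 7 months. The growth factor gene igf2a was the 1 of 4 tested members of the IGF list at an unadjusted p under 0.05 (against 9.11% of all genes, higher). It had 3 and 0 UMIs at 5 months and 19 and 4 at 7 months (adjusted p = 0.0951).

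Hormone genes other than the gonadotropins were each held by few wells. The growth hormone gene gh1 had 3161 and 149 UMIs at 5 months and 100 and 80 at 7 months (log2 difference -2.89 ± 0.87, adjusted p = 0.158), and on TMM-scaled libraries the plates overlapped. A single well held 65.1% of the UMIs of the first 5-month plate. The thyrotropin subunit gene tshba had 105 and 188 UMIs at 5 months and 99 and 1 at 7 months (adjusted p = 0.544), with 84.8% or more of each plate's UMIs in 1 well. The prolactin gene prl had at most 3 UMIs on a plate, pomca had 2 UMIs in all, and smtla had none. In the secretory granule list, which includes the processing enzymes, 6 of 15 members were tested, and pcsk1nl and scg3 were the 2 at an unadjusted p under 0.05, both lower (against 5.77% of all genes).

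The pituicyte list had 10 of 18 members tested, a median of 0.69, and 2 at an unadjusted p under 0.05, both higher (against 9.11% of all genes): vim, of the intermediate filament vimentin (1.00, adjusted p = 0.142), and cyp19a1b, the brain aromatase (0.78, adjusted p = 0.158). The summed list took 0.783% and 0.786% of UMIs at 5 months and 1.18% and 1.48% at 7 months, while within pituicyte-like wells it took 4.08% and 3.25% against 3.99% and 3.51%. Fibroblast markers had 12 of 14 members tested, a median of 0.82 and 2 at an unadjusted p under 0.05, both higher (against 9.11% of all genes). The summed fibroblast list took 0.432% and 0.449% of UMIs at 5 months and 1.48% and 0.359% at 7 months, so the second 7-month plate lay below both 5-month plates. Endothelial, lymphocyte, neutrophil, myelinating glia, erythrocyte and pomca cell lists had no member with enough counts to be tested. Erythrocyte genes took at most 0.00249% of UMIs on any adult plate.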

How the data were processed

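The deposited tables hold raw UMI counts per gene and well, made by the authors with no normalization; per the submitters' processing notes, bcl2fastq 2.15.0.4, Seurat 3.1.5 and the build danRer10 were used. The aligner is not given in the sources used here. The tables have 31325 gene rows, and 92 spike-in rows, which held 0 UMIs, were left out. For each plate the counts of its kept wells were added up, and genes that passed filterByExpr were compared in R 4.3.3 by the quasi-likelihood test of edgeR 4.0.16 after TMM scaling; Benjamini-Hochberg adjusted p under 0.05 were called, and DESeq2 1.42.0 was an alternative; cga, lhb and fshb were not tested. Errors of log2 changes are standard errors, the absolute change over the square root of the F statistic. Wells were clustered with scanpy 1.11.5 and leidenalg 0.10.2 (2000 variable genes, 30 components, 15 neighbours, resolution 1.0), without mt-, AC024175 and ribosomal protein genes.

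A cluster was named where at least 3 markers of a list were detected (5 UMIs, log2 fold of at least 1), at least 2 of them among its 10 leading genes, and more than those of the other lists together; this rule was set after the clusters had been seen. No doublet caller was run, since cells were sorted into wells. CPM within a cluster are on its own UMIs, without TMM scaling. Members and gene lists were chosen with earlier results of these data known. Genes were named as the called genes of smallest p in each direction, up to 12 in the comparison of all kept wells and 5 in the others, with no overlap of plates and at least 10 UMIs; where fewer than 5 were called, the next by p filled up to 5. Hormone genes and called list members were added; others, such as those of the fit without the highest wells, were chosen after their values were seen. Each test was run on counts simulated from its own fit, with some genes changed by a set amount. Those counts were drawn independently for each sum, without single wells, clusters or shared fish. They therefore say nothing about calls that rest on 1 well or on cluster shares. Intervals and limits from a count of 0 cover counting error only. Plate numbers follow accession order and pair nothing.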

Additional observations from a re-analysis of the deposited data

How the results depend on the processing

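For all kept wells (2 calls), the count was 11 with RLE size factors, 19 with library size only, 17 with DESeq2, 70 with no filter on low counts, 9 with all 6 plates in 1 fit, 1 and 0 with minimums of 600 and 1000 UMIs, 30 with gonadotropins under 10%, 98 with no gonadotropin limit, 0 with wells thinned to 400 UMIs and 41 with each gene's highest well left out. With 1 plate left out it ranged from 14 to 99. Leaving out clusters 0, 1, 2 and 3 in turn, an alternative chosen after seeing the data, gave 11, 0, 19 and 26 calls, and leaving out each of the other clusters gave 2. Without cluster 4 both calls were lower, and only 1 of them was among the 2 calls of all kept wells. For pituicyte-like wells (3 calls) the count was 7 with a minimum of 600 UMIs, 0 and 8 at resolutions of 0.6 and 1.5, 6 without the highest wells, and 1 to 48 with 1 plate left out. For wells neither gonadotrope nor pituicyte-like (0 calls) it was 51 with library size only, 7 with DESeq2, 46 with no filter, 17 with thinned wells, 1 with gonadotropins under 2%, and 0 to 47 with 1 plate left out. For the difference between the classes (0 calls) it was 3 with no filter, 2 with a minimum of 600 UMIs, 5 without the highest wells, and 2 to 5 with 1 plate left out. The pituicyte-like share at 5 months was 15.5% at resolution 1.5 and 19.8% when genes of unadjusted p under 0.05 were left out of the clustering. The fibroblast-like share at 5 months was 19.6% at resolution 0.6, 8.73% at 1.5 and 18.7% without those genes, and at 7 months 7.82% at 1.5. The cause of these moves was not tested. Among the genes recomputed under each alternative no log2 difference changed sign, but the calls in pituicyte-like wells, 3 higher and 0 lower, were 0 higher and 2 lower with no filter, and 0 higher and 1 lower without either 5-month plate. No paired analysis was possible because plate numbers are accession order and pair no samples. The second 7-month plate, with 80475 UMIs, set the depth limit of the comparison.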
